A study of Mus musculus with 4 samples.

Results

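The 10 genes described here code for secreted, lysosomal and structural products of Sertoli cells, the somatic cells of the seminiferous tubule that enclose and feed the germ cells. They were chosen by name: Clu, Trf, Shbg, Kitl, Gdnf, Ctsl, Aard, Vim, Rhox5 and Rhox8. Of the 10, 9 have a row among the 24388 gene symbols kept, and Rhox5 is not analysed here. The libraries are mouse RNA sequencing of spermatocyte suspensions, 2 from an Np95 knockout and 2 from controls, all on a C57BL/6 background and all labelled 21 dpc, an abbreviation the labels do not spell out. Np95 is the protein of the gene Uhrf1, which reads hemimethylated CpG sites and brings the maintenance methyltransferase Dnmt1 to them. The column names write the knockout as cKO. The labels name no Cre driver, no allele, no deleted exon and no further genotype for the controls, and do not say how many animals gave each library. Tubules were chopped, digested with accutase and filtered through a mesh, and no sorting is described, so a suspension can hold cells other than spermatocytes.

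Sertoli cells build the blood-testis barrier and deliver to germ cells, behind it, what the blood cannot. They secrete carriers for iron and androgen and a chaperone that coats sperm, and they make the ligands on which spermatogonia depend for renewal and differentiation. They also engulf the residual bodies and dying germ cells, which their lysosomes digest, and a vimentin scaffold holds their tall columnar shape. Follicle-stimulating hormone and testosterone drive many of these products.

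Promoter sequences were available for 5 of the 9 genes, and 4 are shown because Np95 acts at CpG sites. Each runs from 250 bases before to 50 bases after the RefSeq start of the gene on GRCm38.p6, 5′ to 3′ on the strand of the gene, with each CG in capitals. The positions are on that build, whereas the expression values rest on mm9.
Shbg: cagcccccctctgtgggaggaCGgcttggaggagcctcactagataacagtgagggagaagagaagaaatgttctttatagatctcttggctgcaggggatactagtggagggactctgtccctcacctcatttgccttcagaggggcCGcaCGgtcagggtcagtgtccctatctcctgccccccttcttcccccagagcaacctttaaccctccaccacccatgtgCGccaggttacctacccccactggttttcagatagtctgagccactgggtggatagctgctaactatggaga
Ctsl: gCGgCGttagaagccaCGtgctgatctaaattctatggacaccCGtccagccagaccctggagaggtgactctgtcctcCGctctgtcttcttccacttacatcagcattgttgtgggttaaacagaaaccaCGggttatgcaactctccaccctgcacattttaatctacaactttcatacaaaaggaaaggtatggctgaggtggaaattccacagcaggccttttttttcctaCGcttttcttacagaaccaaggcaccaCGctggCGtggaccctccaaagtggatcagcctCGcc
Vim: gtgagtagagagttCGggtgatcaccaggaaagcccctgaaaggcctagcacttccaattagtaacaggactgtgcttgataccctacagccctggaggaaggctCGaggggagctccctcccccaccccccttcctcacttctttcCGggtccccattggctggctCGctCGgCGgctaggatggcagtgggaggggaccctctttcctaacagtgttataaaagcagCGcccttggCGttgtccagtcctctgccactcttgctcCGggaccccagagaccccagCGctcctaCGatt
Kitl: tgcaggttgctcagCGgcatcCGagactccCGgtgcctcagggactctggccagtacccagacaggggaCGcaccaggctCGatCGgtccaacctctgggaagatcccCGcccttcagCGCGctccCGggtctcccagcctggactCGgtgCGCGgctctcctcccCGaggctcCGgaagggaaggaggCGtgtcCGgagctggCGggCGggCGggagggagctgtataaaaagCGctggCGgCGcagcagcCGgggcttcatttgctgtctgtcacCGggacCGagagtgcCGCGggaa
The Shbg window lies on the minus strand at chr11:69617856-69618155 and held 4 CG dinucleotides. The Ctsl window, on the minus strand at chr13:64370471-64370770, held 10, and the Vim window, on the plus strand at chr2:13574061-13574360, held 11. The Kitl window, on the plus strand at chr10:100015571-100015870, held 28. Of 32851 promoter windows of the same length, 31.4% held fewer CG than Shbg, 56.5% fewer than Ctsl, 58.6% fewer than Vim and 85.8% fewer than Kitl, so these genes spread over the CpG-poor and the CpG-rich classes. The 2 windows of Gdnf held 11 and 22 CG. No methylation was measured in these libraries.

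The windows were also searched on both strands for 4 motifs of factors known in Sertoli cells. A Sox motif was searched as AACAAT and was present in 10.7% of all promoter windows of this length. A GATA motif was searched as AGATAA and was present in 11.2% of them. An E-box of USF factors was searched as CACGTG and was present in 7.15%. A cyclic AMP response element was searched as TGACGTCA and was present in 1.79%. Shbg held 1 GATA motif from base 42, counted from the 5′ end. Ctsl held 1 E-box from base 15 and 1 Sox motif from base 108, and the second Gdnf window held 1 GATA motif from base 167. None of the 4 motifs was found in the Vim and Kitl windows, which says only that these letters are not in these windows.

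The values are RPKM, read counts scaled for gene length and library size, 1 column per library. They summed to 72804.6 and 70135.0 in the knockout libraries and 94177.4 and 96578.0 in the controls. Uhrf1 had 1.87 and 1.48 RPKM in the knockout libraries, against 3.11 and 3.29 RPKM in the controls (log2 fold change -0.65, SE 0.10, adjusted p = 0.0031), and the deleted part cannot be read from a value of the whole gene. Low RPKM values fell on whole steps when multiplied by the gene's full span, introns included, in 46.5% to 50.7% of cases. Evenly spread values would give about 10%, but the step size was fitted to these same values, which raises the share. If 1 step is 1 read or read pair, depth was about 10980000 and 4760000 reads in knockout replicates 1 and 2 and about 5750000 and 12660000 reads in control replicates 1 and 2. Finer steps were also present in 2 libraries, so these depths, their differences and the read counts derived from them are approximate. Levels of different genes therefore depend on intron content, whereas 1 gene can be compared between libraries. Sums of RPKM over gene lists and the choice of named genes by mean RPKM carry this dependence. Log2 fold changes are on the log2(RPKM + 1) scale, which understates low genes, and a fold divides the knockout mean RPKM by the control mean. Adjusted p-values are from limma over all 9099 genes that reached 1 RPKM in at least 2 of the 4 libraries.

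Each of the 9 genes was higher in both knockout libraries than in both controls, an order that 53.0% of 21208 symbols with any signal and 51.8% of the genes tested also showed. The ratio of mean RPKM ran from 2.79 for Shbg to 6.10 for Kitl, with a median of 3.29, against a median ratio of 1.14 over all genes tested. Of the 9, 7 passed the filter on low values, and all 7 rose, where 43.3% of all genes tested rose and 30.5% fell. Of these 7, Trf passed only through the knockout libraries, which favours a rise. Of all calls 58.7% were rises, while the share was 77.3% when each library was brought to an equal RPKM sum, 46.3% with an equal median and 50.9% with quantile normalization. The 7 had a median log2 fold change of 1.5, against 0.14 over all genes tested. In tissue suspensions such as these, more Sertoli cells and more RNA per Sertoli cell cannot be told apart.

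**Figure D1:**
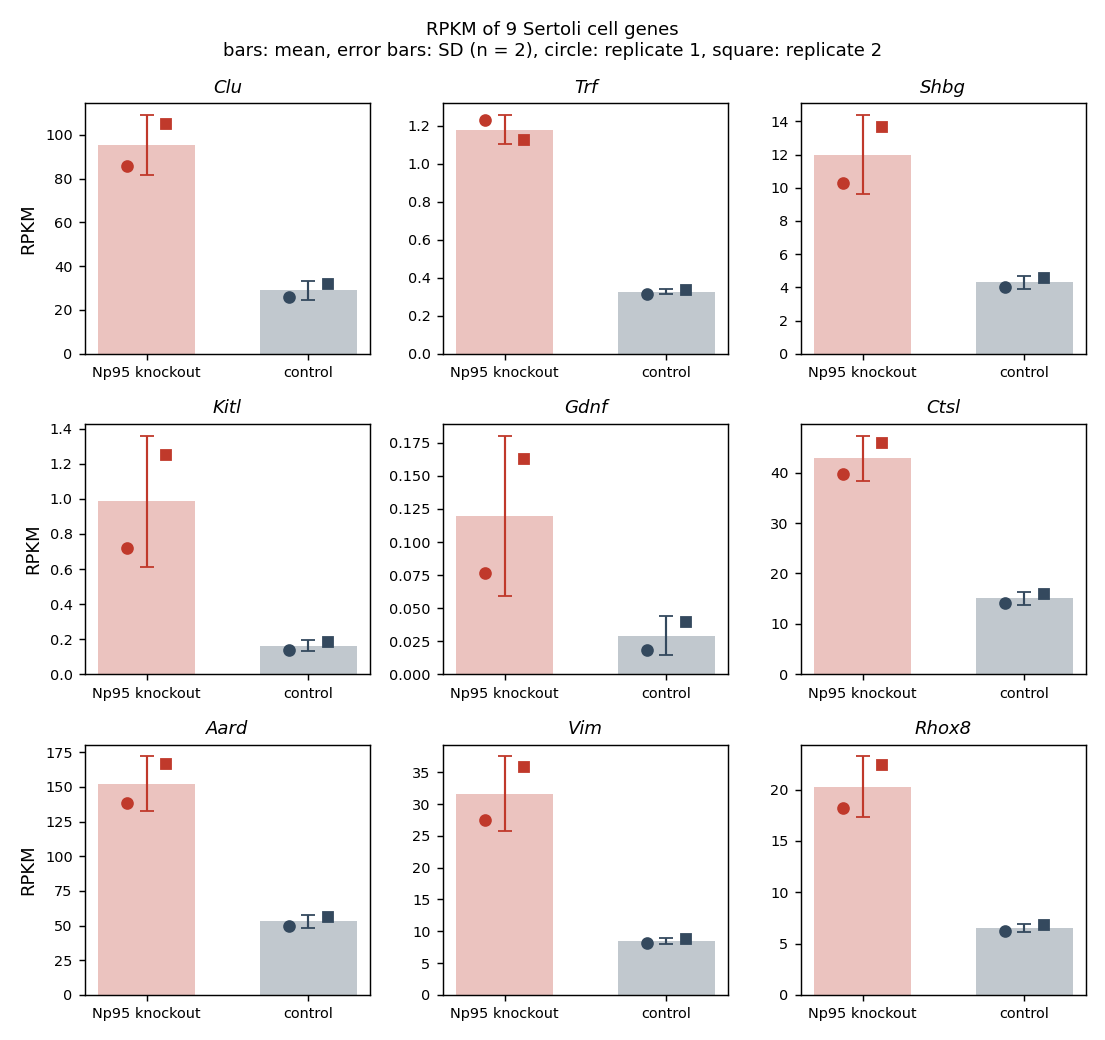
RPKM of the 9 Sertoli cell genes in 2 Np95 knockout libraries (red, left) and 2 control libraries (grey, right), with a linear axis from 0 per gene; bars are means, error bars SD over 2 libraries, circles replicate 1 and squares replicate 2. Both knockout libraries lie above both controls for each gene, and the replicates of Kitl and Gdnf lie furthest apart.

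Among the secreted carriers, clusterin, Shbg and transferrin rose. Clu codes for clusterin, a secreted chaperone that is among the most abundant Sertoli proteins. It had 85.7 and 105 RPKM in the knockout libraries, against 25.9 and 31.9 RPKM in the controls. Its mean was 95.3 ± 13.5 RPKM in the knockout and 28.9 ± 4.25 RPKM in the control (SD, n = 2 each), 3.29-fold higher, with a log2 fold change of 1.69 (SE 0.17, adjusted p = 0.0014). The groups stood apart by more than the spread of either, since the lower knockout library exceeded the higher control 2.68-fold and replicates differed 1.22-fold and 1.23-fold.

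Shbg codes for the androgen-binding protein that Sertoli cells of rodents release into the tubule. Its level was 10.3 and 13.7 RPKM in the knockout, against 4.02 and 4.59 RPKM in the control. The 2.79-fold difference was the smallest of the 9, with a log2 fold change of 1.28 (SE 0.15, adjusted p = 0.0017). Trf codes for transferrin, with which Sertoli cells carry iron across the barrier. It had 1.23 and 1.13 RPKM in the knockout and 0.317 and 0.337 RPKM in the control, 3.61-fold higher (log2 fold change 0.72, SE 0.07, adjusted p = 0.0014). GENCODE M21 places another protein-coding gene, Gm20425, over Trf on the same strand, and reads of both cannot be separated. Trf was below 1 RPKM in both controls, so it was tested only because the knockout libraries reached 1. Its log2 fold change was the smallest of the 7 although its fold was above the median of the 9, and with a pseudocount of 0.1 it was 1.58. Replicate 2 was the higher knockout library for 8 of the 9 genes, and Trf was the exception. In the controls replicate 2 was the higher library for all 9.

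The 2 ligands of spermatogonia were low and reached the filter in neither case. Kitl codes for stem cell factor, the ligand of the receptor Kit on differentiating spermatogonia. It had 0.721 and 1.25 RPKM in the knockout libraries, against 0.139 and 0.184 RPKM in the controls, the widest ratio of the 9 at 6.10-fold. The knockout libraries themselves differed 1.73-fold. Without the filter its log2 fold change was 0.76 (SE 0.15, adjusted p = 0.024), in a fit where 34.8% of 21208 genes rose.

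Gdnf, the glial cell line-derived factor that keeps spermatogonial stem cells renewing, had 0.0769 and 0.163 RPKM in the knockout and 0.0187 and 0.0396 RPKM in the control. The ratio was 4.11, but without the filter the log2 fold change of 0.12 (SE 0.04) did not pass in limma (adjusted p = 0.093). The steps put about 23 and 21 reads behind the knockout values and about 3 and 14 behind the controls, and replicates differed 2.11-fold in the knockout and 2.12-fold in the control. At this depth a change of Gdnf could not be measured with any precision.

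The receptors of these ligands rose without the filter too. Kit had 0.688 and 0.708 RPKM in the knockout and 0.161 and 0.142 RPKM in the control (adjusted p = 0.01). For the 2 parts of the Gdnf receptor, Gfra1 had 0.240 and 0.163 RPKM in the knockout and 0.0533 and 0.0648 RPKM in the control (adjusted p = 0.026). Ret had 0.108 and 0.122 RPKM in the knockout and 0.0335 and 0.0279 RPKM in the control (adjusted p = 0.01). These receptors are known from spermatogonia, the cells that receive the ligands. Without the filter 7 of the list of 9 receptors and uptake proteins rose and 0 fell, and Tfr2 and Lrp2 were not called. In that fit 34.8% of 21208 genes rose and 16.2% fell. Of the 9, 2 passed the filter and both rose. They were the transferrin receptor Tfrc, at 4.0 and 4.07 RPKM in the knockout and 1.91 and 1.87 RPKM in the control, and Lrp8, a lipoprotein receptor that can bind clusterin. Lrp8 had 1.09 and 1.80 RPKM in the knockout and 0.278 and 0.263 RPKM in the control, so it too was tested only through the knockout libraries.

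Ctsl codes for cathepsin L, a cysteine protease of lysosomes that Sertoli cells also secrete. It had 39.6 and 46.0 RPKM in the knockout libraries and 14.2 and 16.0 RPKM in the controls, with a log2 fold change of 1.45 (SE 0.12, adjusted p = 0.0014). GENCODE M21 places an antisense gene, Gm47123, and a processed pseudogene, Gm49230, inside its span, and reads from these cannot be separated in unstranded libraries. Of 24 other lysosomal genes 16 were tested, of which 13 rose, 2 fell and 1 was not called, with a median log2 fold change of 0.87, and 4 of them were tested only through the knockout libraries. Psap, the precursor of the saposins and a major secreted product of Sertoli cells, had 18.6 and 20.8 RPKM in the knockout and 6.61 and 7.09 RPKM in the control. Ctsd, the aspartic protease cathepsin D, had 12.9 and 13.8 RPKM in the knockout and 4.34 and 6.24 RPKM in the control. Lysosomal genes did not move as 1 block. The membrane protein gene Lamp1 fell to 30.7 and 25.7 RPKM in the knockout, against 43.7 and 45.2 RPKM in the control (log2 fold change -0.64, adjusted p = 0.0070). Hexa, a hexosaminidase subunit, fell to 2.89 and 2.80 RPKM, against 3.82 and 4.33 RPKM in the control (log2 fold change -0.40, adjusted p = 0.010). Over the alternatives the adjusted p of Lamp1 ran from 0.0022 to 0.55, missing 0.05 with an equal RPKM sum, with quantile normalization and without control replicate 2 (0.056). That of Hexa ran from 0.0029 to 0.45, missing 0.05 with an equal RPKM sum and without control replicate 2 (0.089).

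Around transferrin, 6 of 7 tested genes of iron handling rose and 1 fell, with a median log2 fold change of 0.80. Slc11a2 and Hfe were tested only through the knockout libraries, and Ftmt only through the controls. Besides Tfrc, the ferritin light chain gene Ftl1 rose, with 36.4 and 40.2 RPKM in the knockout and 12.2 and 12 RPKM in the control. The heavy chain gene Fth1 had 65.3 and 67.8 RPKM in the knockout and 50.3 and 53.5 RPKM in the control, a log2 fold change of 0.35 (adjusted p = 0.033). Both ferritin genes have many processed copies in the genome, between which reads can be split. The gene that fell was Ftmt, the mitochondrial ferritin of testis, at 0.647 and 0.142 RPKM in the knockout and 2.27 and 2.0 RPKM in the control. The adjusted p of Fth1 ran from 0.0016 to 0.28 and missed 0.05 with an equal median, without control replicate 1 (0.28) and without control replicate 2 (0.18).

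Vim codes for vimentin, the intermediate filament protein of adult Sertoli cells, and had the largest log2 fold change of the 7 tested as deposited, though with quantile normalization Clu (2.42) and Aard (2.22) exceeded Vim (2.08). It had 27.4 and 35.8 RPKM in the knockout libraries, against 8.16 and 8.84 RPKM in the controls, 3.72-fold higher (log2 fold change 1.77, SE 0.15, adjusted p = 0.0014). Vimentin is also made by other mesenchymal cells. Of 14 other filament, lamin and linker genes 5 were tested, of which 4 rose, 0 fell and 1 was not called (2 rose and 1 fell with quantile normalization). Of the 4 that rose, Lmnb1, Lmnb2 and Nes were below 1 RPKM in both controls, so the filter favoured their rise. Without the filter 6 of the 14 rose and 2 fell, where 34.8% of 21208 genes rose and 16.2% fell. Plec, the linker plectin, had 3.13 and 3.76 RPKM in the knockout and 2.19 and 2.06 RPKM in the control. Lmnb1, a B-type lamin, had 1.48 and 1.95 RPKM in the knockout and 0.984 and 0.924 RPKM in the control. Lmna, the A-type lamin gene, had 1.04 and 1.26 RPKM in the knockout and 1.04 and 1.19 RPKM in the control (adjusted p = 0.84). The adjusted p of Lmnb1 ran from 0.0034 to 0.12 and missed 0.05 with an equal median, with quantile normalization and without control replicate 2 (0.064). The log2 fold change of Lmna was 0.02, and it was -0.17 with an equal median, -0.03 without control replicate 1, -0.05 without knockout replicate 2 and -0.30 with quantile normalization, where it was called (adjusted p = 0.041, highest over the alternatives 0.87).

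Aard codes for an alanine- and arginine-rich protein that is known as an androgen-responsive transcript of mouse Sertoli cells. It had 139 and 166 RPKM in the knockout libraries, against 49.7 and 56.3 RPKM in the controls, with a log2 fold change of 1.5 (SE 0.15, adjusted p = 0.0014). The other androgen-responsive genes went the same way: with Aard, 7 of 7 tested genes of that list rose, with a median of 1.37. Drd4, a dopamine receptor gene of this list, had 9.34 and 15.0 RPKM in the knockout and 2.56 and 3.51 RPKM in the control. Tubb3, a beta-tubulin gene, had 10.5 and 14.2 RPKM in the knockout and 3.75 and 4.46 RPKM in the control. Fshr, the receptor of follicle-stimulating hormone, had 0.0504 and 0.0663 RPKM in the knockout and 0.0135 and 0.0161 RPKM in the control.

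Rhox8 is an X-linked homeobox gene expressed in Sertoli cells, in a cluster of reproductive homeobox genes. It had 18.2 and 22.3 RPKM in the knockout libraries and 6.25 and 6.77 RPKM in the controls, 3.11-fold higher (log2 fold change 1.5, SE 0.13, adjusted p = 0.0014). RefSeq places the pseudogene Rhox7b across its span. Rhox8 is the only member on the X chromosome, where 94.7% of 265 tested genes rose and the median log2 fold change was 1.06, so a call there is near the background of its chromosome. The other 6 tested members are autosomal, and all 6 rose, where 41.7% of 8783 autosomal genes did. Of these 6, Trf was tested only through the knockout libraries, which favours a rise. Within the cluster 1 further gene was tested, Rhox13, which is expressed in germ cells, and it rose to 3.87 and 4.56 RPKM in the knockout, against 0.977 and 1.26 RPKM in the control. Among the 14 cluster genes measured, 12 stayed below 1 RPKM in every library. Without the filter 7 of the 14 rose and 0 fell, in a fit where 34.8% of 21208 genes rose and 16.2% fell. The whole cluster is X-linked, and 94.7% of tested X-linked genes rose.

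**Figure D2:**
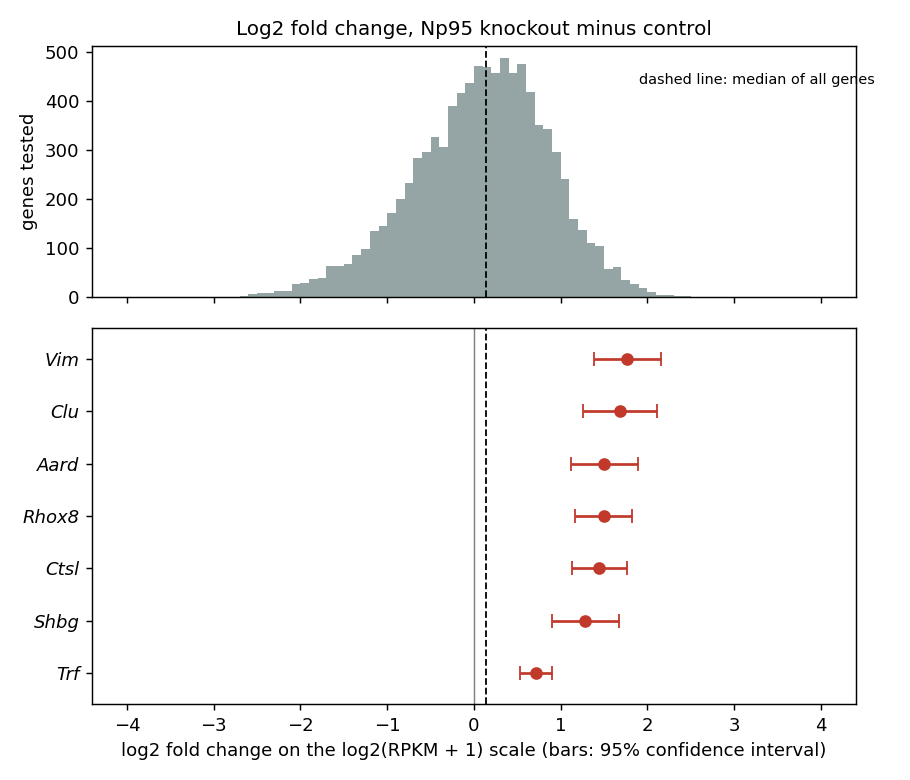
Top, histogram of log2 fold changes (Np95 knockout minus control, log2(RPKM + 1) scale) of the 9099 genes tested; bottom, the 7 tested Sertoli cell genes with 95% confidence intervals from limma, the dashed line marking the median of all genes at 0.14. The intervals of 6 genes overlap each other between 0.90 and 2.15, and Trf lies lower at 0.72.

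In falling order of log2 fold change the 7 tested genes were Vim, Clu, Aard, Rhox8, Ctsl, Shbg and Trf, and no neighbours among the first 6 were separated by their 95% confidence intervals. The lower bound of Shbg was 0.90 and the upper bound of Trf was 0.90 on the same scale, which compresses Trf for its low level. Of all genes tested, 98.8% had a smaller log2 fold change than Clu, 99.1% a smaller one than Vim, 95.0% a smaller one than Shbg and 79.1% a smaller one than Trf. With the all-gene median taken off, the 7 genes ran from 0.58 to 1.63 as deposited, from 0.43 to 1.70 with an equal RPKM sum and from 0.42 to 2.41 with quantile normalization.

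To see whether products and regulators of Sertoli cells moved by the same factor, each gene was divided, library by library, by the summed RPKM of 12 Sertoli transcription factor and receptor genes. This sum was 62.1 and 84.1 in the knockout libraries and 16.5 and 20.4 in the controls, 3.97-fold higher. Of its 9 tested members 9 rose, with a median log2 fold change of 1.33, and 3 of them, Gata4, Wt1 and Dmrt1, were tested only through the knockout libraries. Sox9, the factor that specifies Sertoli cells, had 8.41 and 14.9 RPKM in the knockout and 1.15 and 1.63 RPKM in the control, 8.38-fold higher. Sox8, its close relative, rose 5.77-fold, and Amhr2, the receptor of anti-Müllerian hormone, 3.41-fold.

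Relative to that sum, 5 of the 9 products were lower in both knockout libraries than in both controls, 1 was higher and 3 overlapped. Over all genes tested the ratio was lower in 89.6% and higher in 3.08%. The Shbg ratio was 0.166 and 0.162 in the knockout and 0.244 and 0.225 in the control. The Ctsl ratio was 0.638 and 0.546 in the knockout and 0.861 and 0.784 in the control. The Aard ratio was 2.23 and 1.98 in the knockout and 3.02 and 2.77 in the control. Shbg, Ctsl, Aard, Rhox8 and Clu had ratios of knockout to control of 0.700, 0.720, 0.727, 0.783 and 0.835, so their folds were below the 3.97-fold of this sum. Single regulators varied around it, and Tcf21 and Gata1 rose 2.42-fold and 3.23-fold. Kitl went the other way, at 0.0116 and 0.0149 in the knockout and 0.00847 and 0.00904 in the control, 1.51-fold higher. Vim, Trf and Gdnf overlapped between the groups. The sum is weighted to Amhr2 and Sox9, and both were left out in turn, alternatives chosen after seeing the data. Without Sox9 the counts were again 5 lower, 1 higher and 3 overlapping, the 5 ran from 0.767 for Shbg to 0.915 for Clu, and Vim, Trf and Kitl had ratios of 1.02, 1.01 and 1.66. Without Amhr2 they were 6 lower, 1 higher and 2 overlapping, with Vim now lower at 0.825, the other 5 from 0.620 for Shbg to 0.742 for Clu, and Kitl at 1.34. These ratios are descriptions: an exact permutation test of 2 libraries against 2 cannot go below p = 0.333.

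**Figure D3:**
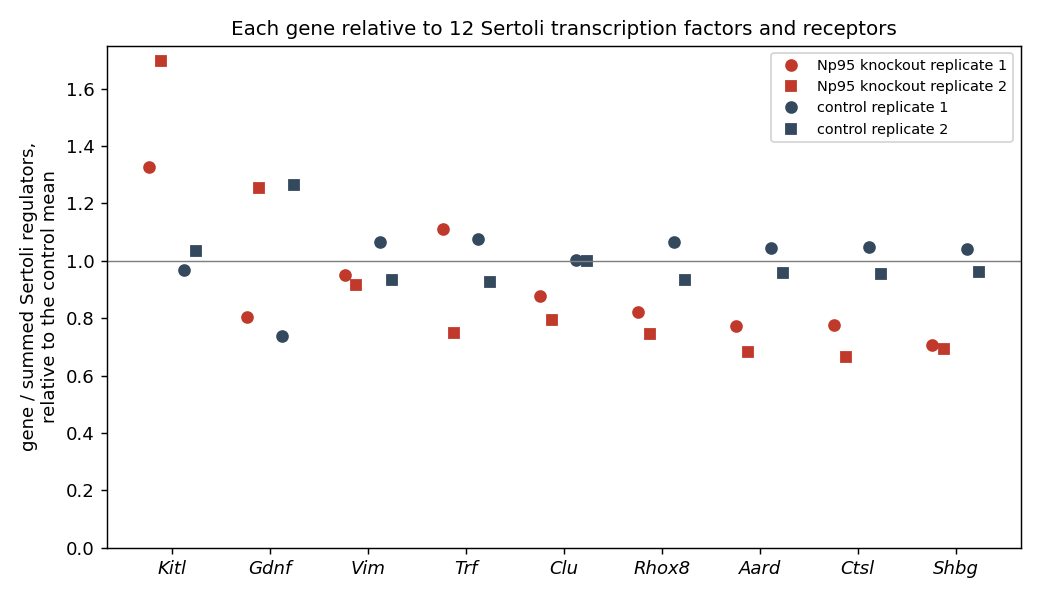
Each gene's RPKM divided by the summed RPKM of 12 Sertoli transcription factor and receptor genes, relative to the control mean of that gene (vertical axis, linear), in the Np95 knockout libraries (red, left) and the control libraries (grey, right). Kitl lies above the controls in both knockout libraries, Clu, Rhox8, Aard, Ctsl and Shbg lie below, and Gdnf, Vim and Trf overlap.

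Other products of Sertoli cells moved with the 9. Of 13 tested genes of other secreted products 12 rose and 1 fell, with a median log2 fold change of 1.29, and 3 (Igfbp3, Cyp26b1 and Cxcl12) were tested only through the knockout libraries. Psap is among them as well as among the lysosomal genes. Inha, the alpha subunit of inhibin, had 50.6 and 70.4 RPKM in the knockout and 16.9 and 21.9 RPKM in the control. The cystatin gene Cst9 had 46.0 and 49.1 RPKM in the knockout and 20.2 and 25.0 RPKM in the control. The ubiquitous cystatin C gene, Cst3, had 48.5 and 46.3 RPKM in the knockout and 32.6 and 34.4 RPKM in the control, the smallest rise of the list at 1.42-fold. The gene that fell was Il1a, a cytokine, at 1.15 and 1.11 RPKM in the knockout and 2.15 and 1.81 RPKM in the control. The adjusted p of Cst3 ran from 0.00081 to 0.11, missing 0.05 with an equal median, without control replicate 1 (0.11) and without control replicate 2 (0.078). That of Il1a ran from 0.0023 to 0.066 and missed with an equal RPKM sum and without control replicate 1 (0.051).

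All 8 tested junction genes of the blood-testis barrier rose, with a median of 0.95, but 5 of them (Tjp1, F11r, Jam3, Espn and Nectin2) were below 1 RPKM in both controls and were tested only through the knockout libraries, which favours a rise. Cldn11, the claudin of Sertoli tight junctions, had 14.3 and 19.6 RPKM in the knockout and 3.50 and 3.94 RPKM in the control. Gja1, a connexin of gap junctions, had 3.34 and 5.10 RPKM in the knockout and 0.805 and 1.05 RPKM in the control. Cldn3, a claudin of new barrier strands that the androgen-responsive list also holds, had 3.31 and 4.41 RPKM in the knockout and 1.63 and 2.35 RPKM in the control. The adjusted p of Cldn3 ran from 0.0021 to 0.061 and missed 0.05 without control replicate 1 (0.054) and without knockout replicate 2 (0.061).

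**Figure D4:**
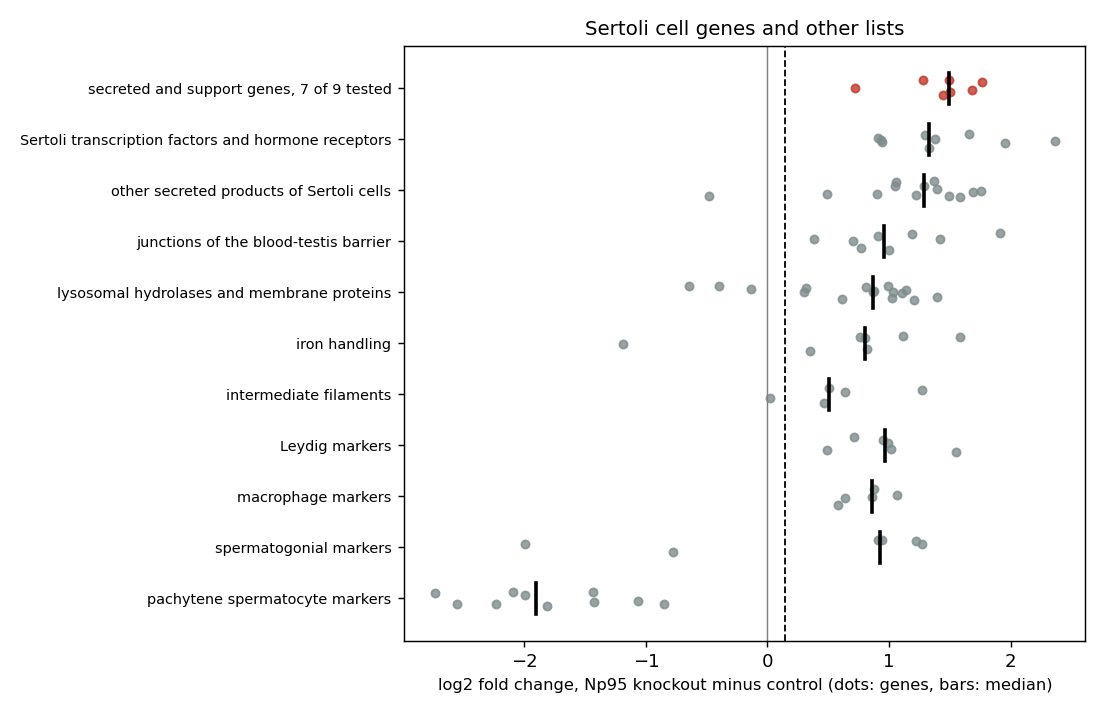
Log2 fold changes (Np95 knockout minus control) of tested genes in the Sertoli products described here (red, top row) and in 10 other lists; dots are genes, bars list medians and the dashed line the median of all genes at 0.14. Medians of the Sertoli lists lie between 0.95 and 1.5, and that of pachytene spermatocyte markers at -1.90.

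Markers of other cells in the suspension also differed between the groups, and their part in the results above was not tested. Leydig cell markers summed to 60.6 and 50.5 RPKM in the knockout and 19.3 and 19.1 RPKM in the control, with 5 of 6 tested genes higher, 1 of them (Cyp11a1) tested only through the knockout libraries. Insl3, a hormone of Leydig cells, had 45.8 and 31.6 RPKM in the knockout and 11.6 and 13.0 RPKM in the control. Star and Hsd3b6, of steroid synthesis, rose 1.96-fold and 2.54-fold. Only 3 of the 6 were called with an equal median, and 3 with quantile normalization. Macrophage markers summed to 16.1 and 12.8 RPKM in the knockout and 4.91 and 6.27 RPKM in the control, with 5 of 5 higher, Cd68 and C1qb tested only through the knockout libraries. The risers included C1qa, C1qc and Lyz2 at 2.48-fold, 3.04-fold and 1.84-fold. Peritubular myoid markers summed to 5.83 and 6.33 RPKM in the knockout and 2.98 and 3.12 RPKM in the control, and the 1 tested gene, Tagln, rose 1.51-fold. Endothelial markers summed to at most 0.847 RPKM in the knockout and 0.355 RPKM in the control, with 0 of 8 reaching the filter and Esam listed at 0 in 1 control. With an equal median the adjusted p in limma was 0.059 for Tagln, 0.098 for Star and 0.073 for C1qa. With quantile normalization it was 0.082 for Tagln, 0.11 for Star and 0.11 for C1qa. Without the filter it was 0.11 for Star and 0.09 for C1qa, while Tagln stayed called at 0.02. Without control replicate 1 the adjusted p was 0.069 for Tagln and 0.11 for C1qa, without control replicate 2 it was 0.14 for Star, without knockout replicate 1 it was 0.09 for C1qa, and without knockout replicate 2 it was 0.12 for Star.

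Germ cell markers were lower in sum. All 10 tested pachytene spermatocyte markers fell, and the list summed to 603 and 472 RPKM in the knockout and 1343 and 1312 RPKM in the control. Ldhc, the germ cell lactate dehydrogenase, had 61.9 and 39.0 RPKM in the knockout and 217 and 210 RPKM in the control, the germ cell kinase gene Pgk2 had 24.9 and 15.3 RPKM in the knockout against 132 and 139 RPKM in the control, and the chaperone gene Hspa2 had 415 and 348 RPKM in the knockout against 693 and 682 RPKM in the control. With quantile normalization the log2 fold change of Hspa2 was 0.05, and its adjusted p, which ran from 0.0012 to 0.57, was 0.085 without control replicate 1 and 0.081 without control replicate 2. Spermatogonial markers summed to 77.4 and 67.7 RPKM in the knockout and 148 and 152 RPKM in the control, but the list went both ways. Most of that sum came from Dmrtb1 and Id4. Dmrtb1 had 28.7 and 20.6 RPKM in the knockout and 100 and 99.3 RPKM in the control. Id4 had 24.6 and 21.6 RPKM in the knockout and 39.0 and 41.7 RPKM in the control. Without the filter 9 of the 12 listed genes rose and 2 fell, where 34.8% of 21208 genes rose and 16.2% fell. Of the 6 tested genes of the list 4 rose, Uchl1 among them at 2.01-fold, while Dmrtb1 and Id4 fell to 0.247 and 0.573 of the control. Another riser, Dmrt1, was tested only through the knockout libraries and is also in the list of Sertoli regulators. The call of Id4 ended with quantile normalization (adjusted p = 0.058, lowest over the alternatives 0.0020). RPKM is relative to all reads of a library, so a fall of abundant germ cell transcripts and a rise of Sertoli transcripts cannot be told apart in absolute amount.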

How the data were processed

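Poly(A) RNA was sequenced as 50-bp pairs from 2 Np95 knockout and 2 control libraries with a kit that does not mark strand, per the labels' protocols. The authors deposited RPKM values, 1 column per library, per the file headers. Bowtie2 and mm9 are named in the submitters' processing notes. The counting program is not given in the sources used here, nor is its annotation. From 24444 rows, 27 whose symbol had turned into a date and the 29 lower rows of repeated symbols were left out. Groups came from the sample titles. The labels do not state whether replicates are separate animals, and the p-values then reflect only library-to-library spread, possibly technical.

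Genes at 1 RPKM or more in at least 2 libraries were compared on log2(RPKM + 1) by limma 3.58.1 (R 4.3.3) with a mean-variance trend, two-sided, with Benjamini-Hochberg adjustment over all genes and a threshold of 0.05. Chromosomes came from RefSeq GRCm38.p6 by symbol, for 99.5% of tested genes, and promoters from the same build. The members and the gene lists were chosen with earlier results of these data known. From each other list the 3 tested genes with the highest mean RPKM are named, with any called against the rest of its list. Kit, Gfra1, Ret and Fshr were named after their values were seen. The 14 alternatives changed the pseudocount, filter, scaling, trend, block, libraries or repeated symbols. A further searched motif and a gene of the regulator list are not reported here.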

Additional observations from a re-analysis of the deposited data

How the results depend on the processing

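The 7 tested members rose under each of the 14 alternatives that could test them: 97 of 97 repeats kept direction and side of the threshold, with an adjusted p of at most 0.013. Trf could not be tested at 5 RPKM, and at 1 RPKM it was tested only through the knockout libraries. Leaving out 1 library at a time kept the members called at 7, and the genes called ranged from 5120 to 6851. Their median log2 fold change of 1.5 was 1.88 with an equal RPKM sum, 1.30 with an equal median and 1.9 with quantile normalization, and the median of all genes moved to 0.46, -0.05 and 0.02. Of all genes, 6719 were called (3943 higher, 2776 lower). Without the filter 10816 were (7370 higher), at 5 RPKM 2709 (1080 higher, 1629 lower), and with an equal RPKM sum 1663 were lower. With the replicate number as a block 7 members and 6589 genes were called, and the call of Fth1 ended (adjusted p = 0.073). The labels do not say whether same-numbered libraries were prepared together, and their deviations correlated at 0.109 over 9099 genes. Gdnf and Trf had the fewest reads, about 3 and 39 in control replicate 1. The replicates of Trf still differed only 1.10-fold in the knockout and 1.06-fold in the control.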
